A study of Gallus gallus with 15 samples.

Results

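The circadian clock of breast muscle was described by 10 genes, ARNTL, CLOCK, NPAS2, PER2, PER3, CRY1, CRY2, NR1D2, BHLHE40 and TEF. They form a list of names, looked up among the 23599 gene names of the expression table, and all 10 were found. The list was chosen with earlier results of these data known. The samples were breast muscles of 15 Jingyuan hens, a Chinese native chicken breed, 5 birds slaughtered at each of 42, 126 and 180 days of age. All birds came from the same farm with free access to feed and water, no treatment is named, and the mean body weights given for the ages were 0.422 ± 0.03, 1.68 ± 0.14 and 2.03 ± 0.09 kg. Polyadenylated RNA of each bird was sequenced, and expression was given as FPKM, the fragments of a transcript scaled to its length and to the mapped fragments of the library. The hour of the day at which the birds were slaughtered is not given in the sources used here, so for every clock gene a difference between ages and a difference between sampling hours cannot be told apart.

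The clock is a feedback loop of transcription that runs in nearly every cell, skeletal muscle fibres included, and it is best known from mammals. ARNTL (also called BMAL1) pairs with CLOCK or its relative NPAS2 and switches on genes that carry E-box sequences, among them the PER, CRY, NR1D and BHLHE40 genes. PER and CRY proteins then block that pair, NR1D receptors repress ARNTL, BHLHE40 competes at the E-boxes, and TEF passes the rhythm on to genes with D-box sequences. Because transcripts of these genes rise and fall over the day, with ARNTL and the NR1D genes peaking far apart, the level in one bird depends on the hour as well as on the tissue.

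Before the clock genes, the libraries were examined. The FPKM of a bird summed to between 413638 and 481698, between 15739 and 17479 gene names were above 0, and Pearson's r of the log2 values of any pair of birds was at least 0.83 and at most 0.966. The depth of each library is unknown, since FPKM hold no read counts. The labels name the tissue as breast and also carry the terms myoblast and primary cell. The 4 fast muscle markers found of 9 listed (TNNT3, TNNI2, TNNC2 and PVALB) summed to 5745 to 17670 FPKM at 42 days, 12813 to 16505 at 126 days and 12504 to 17592 at 180 days, and PVALB contributed at most 4.37 FPKM. Replicate 5 of 42 days had the lowest fast muscle sum, 5745 FPKM, against 11026 FPKM in the next bird of its age. Replicate 1 of 180 days held the most lymphocyte transcripts, with a T cell marker sum of 105 FPKM and a B cell marker sum of 513 FPKM, 487 FPKM of it JCHAIN. In bulk tissue, fewer cells of a type and less RNA per cell cannot be told apart.

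All 10 clock genes were above 0 in every bird, at levels between 0.26 FPKM (NPAS2) and 105 FPKM (CRY1). FPKM are per length, so levels can be set beside each other between genes, although several entries of a name were summed. At 42 days the means ran from NR1D2 through BHLHE40, CRY1, CRY2, TEF, PER2, CLOCK, PER3 and ARNTL to NPAS2, and the ranges of neighbours in this order overlapped except between ARNTL and NPAS2. At 126 days CRY1 stood alone at the top, with no overlap with BHLHE40, followed by CRY2, CLOCK, PER2, NR1D2, ARNTL and TEF with overlapping ranges, and then by PER3 and NPAS2. At 180 days BHLHE40 came first, CRY1 next and NR1D2 after it, without overlap between these 3. ARNTL thus stood ninth of 10 by its mean at 42 days and seventh at 126 days, where its range overlapped that of NR1D2.

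**Figure D1:**
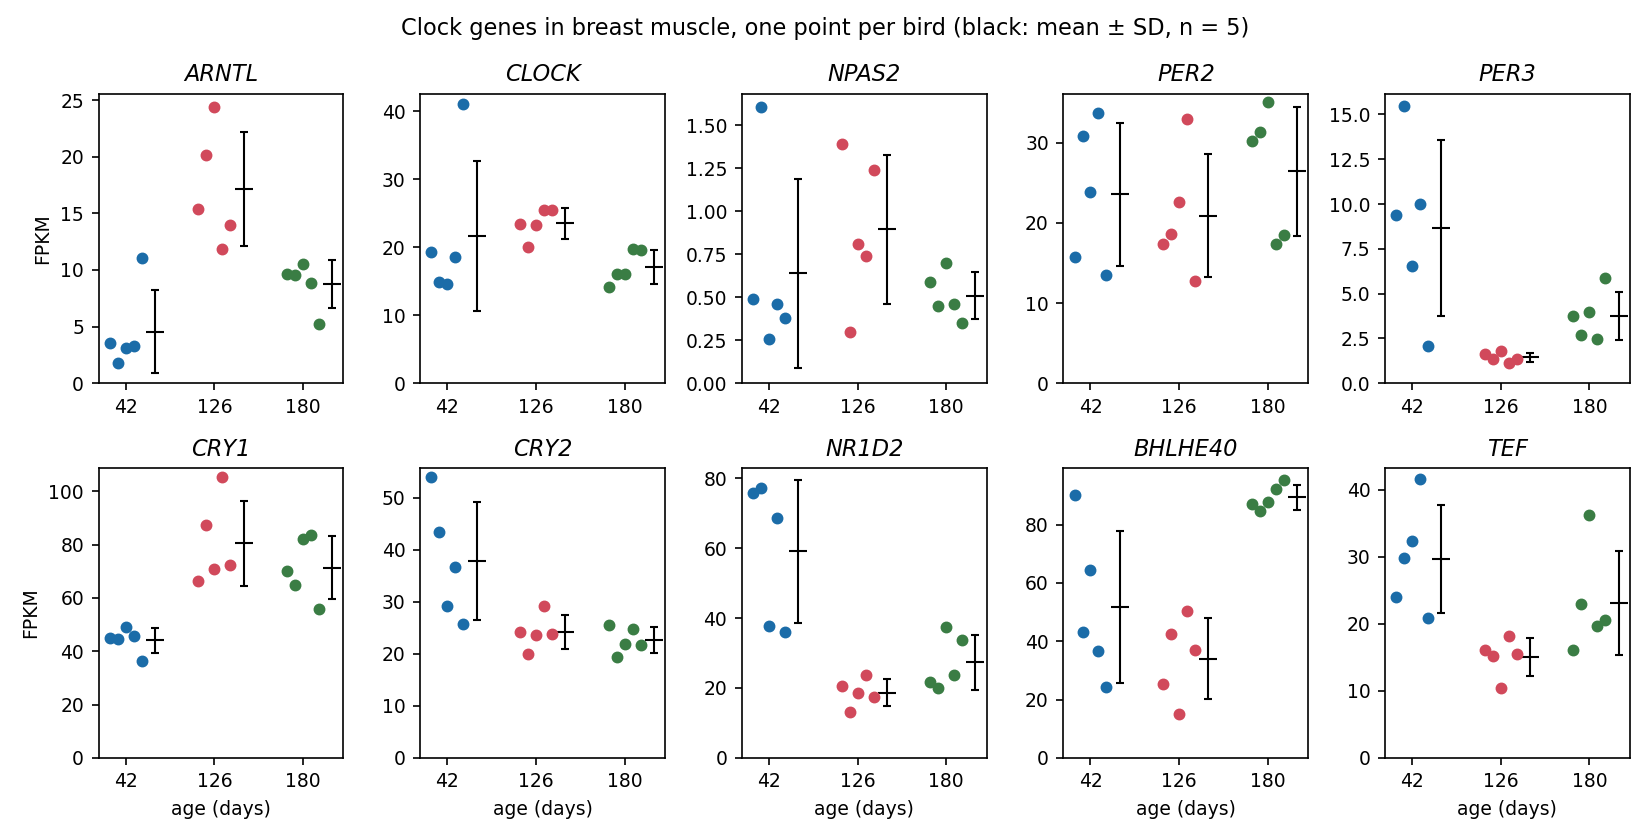
FPKM of the 10 clock genes in each bird by age, 1 point per bird, with the mean and SD of each age in black (n = 5). ARNTL is highest and PER3 and NR1D2 are lowest at 126 days, and BHLHE40, summed over its entries, is tightly grouped between 84.6 and 95.4 FPKM at 180 days.

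Among the activators, ARNTL differed most between the ages. ARNTL was 3.56, 1.83, 3.07, 3.29 and 11.07 FPKM in replicates 1 to 5 of 42 days. At 126 days ARNTL was 15.34, 20.14, 24.40, 11.84 and 14.01 FPKM. At 180 days ARNTL was 9.63, 9.58, 10.54, 8.84 and 5.19 FPKM. Every bird of 126 days lay above every bird of the other ages, and replicate 5 of 42 days lay just above the birds of 180 days while the other 4 of its age lay below them. The means were 4.56 ± 3.70, 17.1 ± 5.07 and 8.76 ± 2.08 FPKM (SD, n = 5 each).

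CLOCK, the partner of ARNTL, varied less. At 42 days CLOCK was 19.34, 14.87, 14.56, 18.56 and 41.12 FPKM in replicates 1 to 5. At 126 days CLOCK was 23.41, 20.05, 23.22, 25.48 and 25.47 FPKM, and at 180 days 14.10, 16.08, 16.11, 19.77 and 19.58 FPKM. The birds of 126 and 180 days did not overlap, the former being higher, and replicate 5 of 42 days was above all other birds of the series. NPAS2, which can stand in for CLOCK, was near the lower end of measurement, between 0.26 and 1.61 FPKM in all 15 birds, and its ages overlapped.

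The PER and CRY repressors did not move as a group. PER3 was 9.37, 15.45, 6.53, 10.01 and 2.06 FPKM in replicates 1 to 5 of 42 days. At 126 days PER3 was 1.61, 1.35, 1.81, 1.15 and 1.33 FPKM, and at 180 days 3.77, 2.69, 3.99, 2.49 and 5.87 FPKM. The birds of 126 days were below all others, and replicate 5 of 42 days, the bird with the most ARNTL at its age, had the least PER3 there. PER2 stood at 13.55 to 33.66 FPKM at 42 days, 12.70 to 33.01 at 126 days and 17.33 to 35.02 at 180 days, and the ages overlapped.

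CRY1 was 44.92, 44.65, 48.90, 45.79 and 36.34 FPKM in replicates 1 to 5 of 42 days. At 126 days CRY1 was 66.43, 87.31, 70.94, 105.22 and 72.26 FPKM, and at 180 days 70.08, 64.69, 82.06, 83.70 and 55.73 FPKM. All birds of the later ages were above all birds of 42 days. CRY2 went the other way, with 53.98, 43.42, 29.28, 36.62 and 25.72 FPKM at 42 days. At 126 days CRY2 was 20.05 to 29.12 FPKM with a median of 23.72, and at 180 days 19.35 to 25.52 FPKM with a median of 21.92. The lowest bird of 42 days overlapped the range of 126 days, and it lay just above the highest bird of 180 days. The ratio of CRY1 to CRY2 in the same bird was 0.832 to 1.67 at 42 days, 2.74 to 4.35 at 126 days and 2.57 to 3.74 at 180 days, so the paralogues were near parity in the youngest birds and CRY1 led in all older ones.

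Of the other arm of the loop, NR1D2 (REV-ERB beta, a nuclear receptor that represses ARNTL in mammals) was 75.82, 77.14, 37.84, 68.56 and 36.13 FPKM in replicates 1 to 5 of 42 days. At 126 days NR1D2 was 20.67, 12.98, 18.57, 23.74 and 17.45 FPKM, and at 180 days 21.58, 20.05, 37.37, 23.73 and 33.67 FPKM. The birds of 126 days lay below all birds of 42 days, and the birds of 180 days reached into both ranges. BHLHE40 (DEC1) was 90.28, 43.12, 64.46, 36.79 and 24.23 FPKM at 42 days. At 126 days BHLHE40 was 25.47, 42.47, 14.97, 50.47 and 37.01 FPKM, and at 180 days 87.03, 84.61, 87.63, 92.27 and 95.41 FPKM. The coefficient of variation of BHLHE40 was 50.2% at 42 days and 41.2% at 126 days but 4.88% at 180 days, where its 5 birds were nearly alike. They were alike only in the sum of its 2 entries. The main entry alone was 58.49, 54.37, 85.05, 89.74 and 89.64 FPKM in replicates 1 to 5 of 180 days.

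TEF, the D-box activator known in chicken as VBP, was 24.01, 29.73, 32.26, 41.64 and 20.83 FPKM in replicates 1 to 5 of 42 days. At 126 days TEF was 16.15, 15.17, 10.42, 18.10 and 15.51 FPKM, and at 180 days 16.12, 22.88, 36.19, 19.69 and 20.53 FPKM. The birds of 126 days lay below those of 42 days, and the birds of 180 days overlapped both.

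The ages were then compared 2 at a time, with the later age over the earlier. For each pair of ages, the log2(FPKM + 0.1) values of their 10 birds entered a limma trend model of every gene whose mean reached 0.5 FPKM, and p was adjusted by the Benjamini-Hochberg method over all of these genes. A gene passed the test with an adjusted p under 0.05 and was a DEG if its absolute log2 fold change was also at least 1. Log2 fold changes are on the log2(FPKM + 0.1) scale, which understates the change of low genes such as NPAS2. All 10 clock genes passed the minimum in each comparison. At 180 against 42 days NPAS2 did so only through replicate 2 of 42 days (1.61 FPKM) and was not tested without that bird. The 3 comparisons share birds, each age entering 2 of them, so they are not independent of each other. The p-values measure the spread between the 5 birds of an age, and an exact two-sided permutation test of a single gene cannot go below 0.00794 with 5 birds against 5.

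In 126- against 42-day-old birds, ARNTL and CRY1 rose and PER3, NR1D2 and TEF fell. ARNTL rose by a log2 fold change of 2.11 (SE 0.39, limma adjusted p = 0.0195), which is 4.33-fold. CRY1 rose 1.80-fold (log2 fold change 0.85, SE 0.17, limma adjusted p = 0.0218). NR1D2 was 3.04-fold lower (log2 fold change -1.61, SE 0.26, limma adjusted p = 0.0111), and PER3 was 4.79-fold lower (log2 fold change -2.26, SE 0.43, limma adjusted p = 0.0209). TEF was 1.94-fold lower (log2 fold change -0.96, SE 0.22, limma adjusted p = 0.0353). In each of these 5 genes all 5 birds of one age lay above all 5 birds of the other.

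Thus 5 of the 10 clock genes passed the test, against 3.21% of the 11482 genes tested. Because the list was chosen with earlier results known, such shares, here and in the other comparisons, are a description. The 2 higher genes stand beside 0.644% of all genes passing as higher, and the 3 lower ones beside 2.57% passing as lower. ARNTL, PER3 and NR1D2 were DEGs, as were 2.46% of all genes. The 5 clock genes whose ages did not overlap compare with 6.44% of all genes. The median log2 fold change of the 10 was -0.37, beside -0.15 over all genes tested. Relative to that overall shift of -0.15, the falls are slightly smaller and the rises slightly larger: after quantile normalization between birds, which put the median of all genes at -0.01, ARNTL stood at 2.26, CRY1 at 0.91, NR1D2 at -1.51 and PER3 at -2.13, and TEF at -0.84 with a limma adjusted p of 0.0674. The DEGs of all genes were 63 higher and 220 lower as deposited, and 115 higher and 152 lower after quantile normalization.

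The other 5 clock genes did not pass the test in this comparison. CRY2 had a log2 fold change of -0.60 (95% interval -1.06 to -0.15, limma adjusted p = 0.138, exact permutation p = 0.0159). CLOCK had 0.23 (interval -0.33 to 0.79), BHLHE40 -0.58 (-1.41 to 0.26), NPAS2 0.53 (-0.52 to 1.57) and PER2 -0.16 (-0.82 to 0.50). The intervals of CLOCK and PER2 stay within the 0.85 seen in CRY1 in either direction, and those of the other 3 do not.

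**Figure D2:**
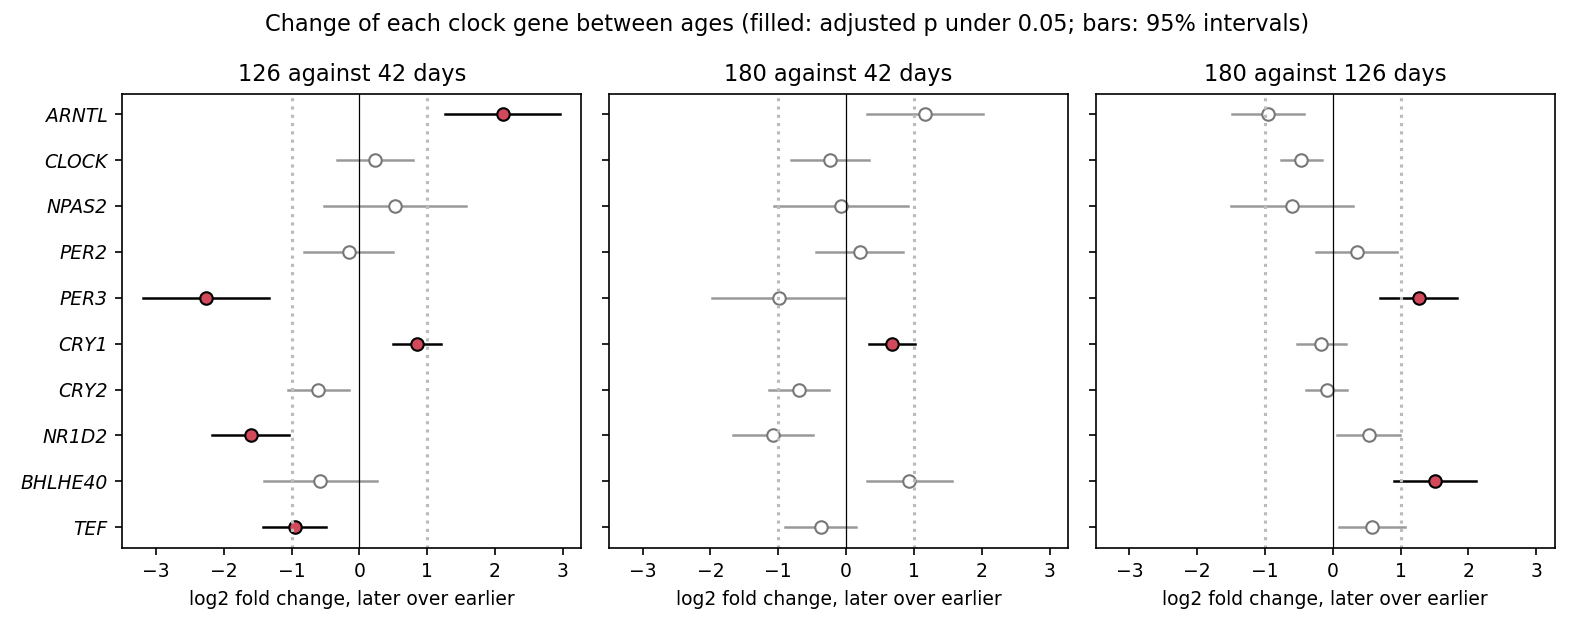
Log2 fold change of each clock gene in the 3 comparisons, later over earlier age, with its 95% interval from limma (n = 5 birds per age). Filled points passed the test, open ones did not, and the dotted lines mark a log2 fold change of 1 in either direction.

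Some calls at 126 against 42 days were lost when a bird was left out. NR1D2 passed the test whichever bird was left out (limma adjusted p between 0.00508 and 0.0356). ARNTL lost the call without replicate 2 of 42 days or replicates 2 or 3 of 126 days (adjusted p 0.0504, 0.0535 and 0.0550), and CRY1 without the same 3 birds (0.0565, 0.0639 and 0.0505). PER3 lost it without replicates 2 or 4 of 42 days (0.0557 and 0.0509) and replicates 2 or 3 of 126 days (0.0535 and 0.0504). TEF kept it only without replicate 5 of 42 days or replicate 1 of 126 days and had adjusted p between 0.0512 and 0.0857 without any of the other 8 birds. The log2 fold changes themselves moved little, between 1.86 and 2.50 for ARNTL and between -2.70 and -1.99 for PER3. The count of clock genes called was 1 without replicate 2 of 42 days or replicates 2 or 3 of 126 days and 3 without replicate 4 of 42 days. Calls over all genes fell with them. With all birds 369 genes passed, and 80, 88 and 87 passed without the first 3 of these birds and 152 without the last.

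In 180- against 42-day-old birds, CRY1 was the single clock gene that passed the test. CRY1 rose 1.60-fold (log2 fold change 0.68, SE 0.16, limma adjusted p = 0.0356), with all 5 birds of 180 days above all birds of 42 days. It was not a DEG, as its change was under 2-fold on that scale. The 1 clock gene of 10 stands beside 3.41% of the 11692 genes tested that passed, of which 0.599% of all genes were higher and 2.81% lower. No clock gene was a DEG, against 2.93% of all genes, while 6 of 10 had an unadjusted p under 0.05, as did 17.6% of all genes. In the other comparisons 6 of 10 also had an unadjusted p under 0.05, beside 19.6% of all genes at 126 against 42 days and 15.8% at 180 against 126. CRY1 and CRY2 did not overlap between these ages, as did 5.66% of all genes.

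NR1D2 was just outside the threshold at a log2 fold change of -1.08 (SE 0.27, limma adjusted p = 0.0518). CRY2 had -0.69 (SE 0.20, adjusted p = 0.0902), BHLHE40 0.93 (SE 0.29, 0.107), ARNTL 1.16 (SE 0.39, 0.140) and PER3 -0.99 (SE 0.45, 0.278). TEF, CLOCK, PER2 and NPAS2 had log2 fold changes between -0.38 and 0.20. The median of the 10 was -0.15, beside -0.13 over all genes.

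The calls of this comparison depended on which bird was left out. Without replicate 5 of 42 days, 5 clock genes passed the limma test, while the genes passing among all genes rose from 399 to 509. The 5 were ARNTL at a log2 fold change of 1.54 (adjusted p = 0.00837), PER3 at -1.43 (0.0231), NR1D2 at -1.24 (0.0238), CRY2 at -0.82 (0.0305) and CRY1. Without replicate 3 of 42 days NR1D2 passed as well (-1.22, adjusted p = 0.0418), and without replicate 1 of 42 days BHLHE40 did (1.17, adjusted p = 0.0345). At 42 days replicate 5 had the highest ARNTL and the lowest PER3, NR1D2 and CRY2, and replicate 1 had the highest BHLHE40. These birds stood out by the tested genes themselves, so the lower p without them is a description. CRY1 lost its call without replicates 1, 2 or 4 of 42 days or replicates 2, 3 or 4 of 180 days, with adjusted p between 0.0632 and 0.102. No clock gene passed without replicates 2 or 4 of 42 days or replicates 2, 3 or 4 of 180 days. Over all genes, 183 to 260 passed without 1 of these birds. With the FPKM of each bird rescaled to a common sum, CRY1 did not pass (limma adjusted p = 0.0545) and NR1D2 did (0.0355).

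In 180- against 126-day-old birds, BHLHE40 and PER3 rose. BHLHE40 was 2.84-fold higher (log2 fold change 1.51, SE 0.27, limma adjusted p = 0.0294) and PER3 2.41-fold higher (log2 fold change 1.27, SE 0.26, limma adjusted p = 0.0438). Both were DEGs, and in both the birds of the ages did not overlap. The 2 of 10 stand beside 1.25% of the 11515 genes tested, with 0.729% of all genes higher and 0.521% lower. DEGs made up 0.921% of all genes. ARNTL and CLOCK, too, did not overlap between the ages, both being lower at 180 days, which makes 4 of 10 clock genes beside 4.31% of all genes. ARNTL had a log2 fold change of -0.95 (SE 0.24, limma adjusted p = 0.0759) and CLOCK -0.46 (SE 0.14, limma adjusted p = 0.134).

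The remaining 6 were CRY1 (-0.17), CRY2 (-0.09), NR1D2 (0.53), TEF (0.58), PER2 (0.36) and NPAS2 (-0.60) on the log2 scale, none of which passed. The median of the 10 was 0.13, beside 0.01 over all genes. PER3 kept its call only without replicate 1 of 180 days and had limma adjusted p between 0.0586 and 0.119 without any other bird. BHLHE40 lost it without replicate 1 of 126 days (adjusted p = 0.0550) or replicates 2 to 5 of 180 days (0.0681, 0.0762, 0.0685 and 0.0699). Without replicate 1 of 126 days or replicates 2, 3, 4 or 5 of 180 days no clock gene passed, and without replicates 2 to 5 of 126 days 1 did. Without replicate 1 of 180 days, the lymphocyte-rich bird, the count stayed at 2. Over all genes 144 passed with all birds and 501 without that bird, and 15 to 91 passed without 1 of the others.

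The ratio of activator to repressor within a bird does not depend on a common scaling of its library. The ratio of ARNTL to NR1D2 was 0.0237 to 0.306 at 42 days, with a median of 0.048. It was 0.499 to 1.55 at 126 days, with a median of 0.803, and 0.154 to 0.478 at 180 days, with a median of 0.373. All birds of 126 days were above those of the other ages, and the highest bird of 42 days, replicate 5, lay within the range of 180 days. Against 42 days this separation follows from the levels of ARNTL and NR1D2, neither of which overlapped between these ages. The ratio of ARNTL to PER3 was 0.118 to 5.37 at 42 days, 9.53 to 14.9 at 126 days and 0.884 to 3.56 at 180 days. Here the birds of 126 days were above all others, and replicate 5 of 42 days exceeded every bird of 180 days. The separation at 126 days follows from ARNTL being highest and PER3 lowest in those birds and is not a further result. ARNTL made up 0.123 to 0.269 of the CLOCK level at 42 days, 0.465 to 1.05 at 126 days and 0.265 to 0.683 at 180 days.

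Birds of one age may differ in their hour of sampling, so the clock genes were also compared among birds within ages. Each gene's log2 values were centred on the mean of its age, and the 45 pairs of the 10 genes were tested over the 15 birds by permuting birds within ages (100000 permutations, two-sided). No pair passed after Benjamini-Hochberg adjustment, and 6 had an unadjusted p under 0.05. For ARNTL and PER3, Pearson's r was -0.772 (permutation p = 0.0257, 0.325 after adjustment) and Spearman's rho -0.375 (permutation p = 0.204). Leaving out replicates 5 and 2 of 42 days brought r to -0.126, so this relation rests on those birds. For ARNTL and NR1D2, r was -0.572 (permutation p = 0.0528, 0.339 after adjustment), rho was -0.396 (permutation p = 0.187), and r was -0.286 once those birds were left out. PER3 and NR1D2, the pair with the lowest p, had a positive r of 0.689 (permutation p = 0.0103, 0.325 after adjustment) and a rho of 0.675 (permutation p = 0.0255, 0.41 after adjustment). Once those birds were left out, r was 0.564 (permutation p = 0.078). At 42, 126 and 180 days taken alone, the r of PER3 and NR1D2 was 0.84, -0.0952 and 0.695. For ARNTL and PER3 it was -0.96, 0.761 and -0.676, so the sign differed at 126 days in both pairs.

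**Figure D3:**
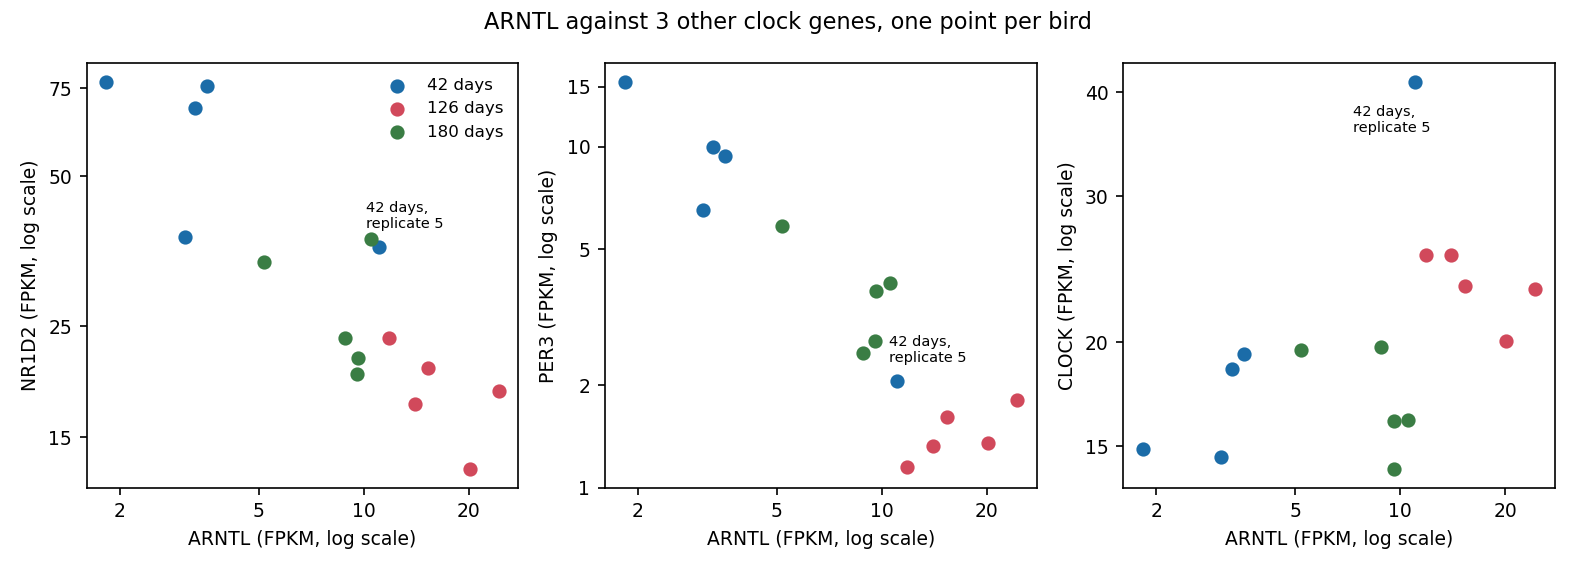
ARNTL against NR1D2, PER3 and CLOCK in each of the 15 birds, FPKM on log axes, coloured by age. Replicate 5 of 42 days lies apart from the other 4 birds of its age, with ARNTL at 11.07, PER3 at 2.06 and CLOCK at 41.12 FPKM.

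Among 10193 other gene names that averaged 1 FPKM or more, the genes with a symbol that were most like ARNTL in the same centred values were GNPNAT1 (r = 0.876), MAD2L2 (0.866), DDX3X (0.848), CCNG1 (0.802) and DERA (0.800), at ranks 1, 2, 4, 5 and 6 from the highest, since the name at rank 3 is not a gene symbol. The least like were BOP1 (-0.911), CA3A (-0.890), ANK2 (-0.879), SLC25A25 (-0.839) and PPP1R3C (-0.831). These r values, over 15 birds, are a description, and the points share the bird and its library, replicate 5 of 42 days included. Among the clock genes, PER3 ranked 22 from the lowest, NR1D2 264, BHLHE40 349, CRY2 355, TEF 911, PER2 1323 and CRY1 1971. CLOCK ranked 158 from the highest with an r of 0.623, but its Spearman's rho with ARNTL was 0.129. Leaving out replicates 5 and 2 of 42 days turned this r to -0.48, so the likeness of CLOCK rests on those birds. DDX3X, an RNA helicase, also had its highest levels at 126 days, 930 to 1548 FPKM against 250 to 555 at 42 days and 411 to 522 at 180 days. In GNPNAT1, MAD2L2, CCNG1 and DERA the ranges of the ages overlapped. Their medians at 42, 126 and 180 days were 5.67, 6.11 and 5.8 FPKM in GNPNAT1 and 12.03, 12.05 and 13.54 in MAD2L2. In CCNG1 they were 120.13, 115.05 and 103.24 FPKM, and in DERA 4.62, 3.83 and 5.33.

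Beyond the 10, a list of 29 further clock genes held 22 that were found, and 20 were tested in each comparison. NR1D1 (REV-ERB alpha), the paralogue of NR1D2, was 16.36, 19.08, 3.35, 8.37 and 5.57 FPKM in replicates 1 to 5 of 42 days. At 126 days NR1D1 was 0.69, 1.24, 1.27, 1.48 and 1.22 FPKM, and at 180 days 3.65, 5.40, 6.49, 2.29 and 4.65 FPKM. The birds of 126 days were below all others, the same order of ages as in PER3. NR1D1 fell at 126 against 42 days by a log2 fold change of -2.82 (SE 0.43, limma adjusted p = 0.00921), whichever bird was left out. It rose at 180 against 126 days by 1.80 (SE 0.30, limma adjusted p = 0.0239), and there it lost the call without replicate 2 of 126 days or replicates 2, 3 or 5 of 180 days, with adjusted p between 0.0501 and 0.0692.

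HLF, a D-box activator related to TEF, was 8.34, 11.38, 6.62, 10.02 and 10.46 FPKM at 42 days and 5.06, 3.23, 5.43, 3.11 and 3.02 FPKM at 180 days, and these birds did not overlap. HLF fell between them by a log2 fold change of -1.24 (SE 0.23, limma adjusted p = 0.0137). Of the 20 tested, 18, 19 and 19 did not pass in the 3 comparisons, in which 3.21%, 3.41% and 1.25% of all genes passed. An unadjusted p under 0.05 was found in 10, 5 and 6 of the 20, beside 19.6%, 17.6% and 15.8% of all genes. The list medians were -0.09 at 126 against 42 days, 0.03 at 180 against 42 and -0.11 at 180 against 126.

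NFIL3, a repressor at D-boxes and a gene named after its values were seen, also set replicate 5 of 42 days apart. NFIL3 was 3.49, 5.02, 2.55, 8.05 and 49.72 FPKM at 42 days. At 126 days NFIL3 was 15.98 to 44.29 FPKM with a median of 26.04, and at 180 days 5.06 to 17.50 FPKM with a median of 9.44. Replicate 5 of 42 days was thus above all birds of 126 days, and the other 4 were below them. NFIL3 did not pass at 126 against 42 days (log2 fold change 1.83, limma adjusted p = 0.147), but did without that bird (2.52, adjusted p = 0.00523). That bird stood out by NFIL3 itself, so the lower p is a description. Without any other single bird the adjusted p was between 0.164 and 0.264. With the highest entry of each name alone, NFIL3 had 0.21 (limma adjusted p = 0.937). At 180 against 126 days it had -1.42 (adjusted p = 0.0602), and it passed without replicate 1 of 180 days (-1.64, adjusted p = 0.0226).

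Clock genes also respond to glucocorticoids, temperature and handling, so genes of these responses were read beside them. Of 16 listed genes (FKBP5, KLF9, SGK1, DUSP1, FOS, EGR1 and others) 14 were found and tested, and none passed in any of the 3 limma comparisons. Of the 14, 4 at 126 against 42 days had an unadjusted p under 0.05, beside 19.6% of all genes. At 180 against 42 days 5 did, beside 17.6%, and at 180 against 126 days 2 did, beside 15.8%. The list medians were -0.18, -0.47 and -0.14 in these 3 comparisons. The largest changes were 2.43 in ATF3 (SE 0.65, limma adjusted p = 0.0659), -1.64 in PDK4 (SE 1.40, 0.609) and -3.01 in PDK4 (SE 0.99, 0.163). The summed level of the 14 genes was 445 to 1928 FPKM at 42 days, 969 to 1875 at 126 days and 510 to 1106 at 180 days. The highest sum of 126 days was that of replicate 3, with ATF3 at 1199 FPKM. Within 42 days, replicate 5 had the highest sum and replicate 4 the next at 1309 FPKM, and the other 3 birds had 445, 588 and 532 FPKM. PDK4, a kinase that holds back the use of glucose, made up 1218 FPKM of the sum in replicate 5 and 542 FPKM in replicate 4. Without PDK4 the sum was 709.96 FPKM in replicate 5, 767 FPKM in replicate 4 and 433 to 545 FPKM in the other 3. FKBP5 made up 346.23 FPKM in replicate 4 and 140.78 FPKM in replicate 5. Single genes differed: FOS was 70.00 and EGR1 147.46 FPKM in replicate 5, with the next birds of 42 days at 22.71 and 35.95 FPKM. JUN and ERRFI1 were also highest in replicate 5 at that age, and the remaining genes of the list were highest in other birds. The part of this response in the clock gene levels was not tested.

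Markers of other cells also moved between the ages. At 126 against 42 days, 3 of 7 tested T cell markers (CD3E, CD8A and LCK) and JCHAIN, the 1 tested B cell marker, rose, beside 0.644% of all genes. The other 4 T cell markers did not pass, with log2 fold changes of 1.87 in ZAP70, 1.38 in CD3D, 0.28 in CD247 and -0.73 in CD4. The sum of the 10 T cell markers was 3.83 to 9.43 FPKM at 42 days, 10.9 to 25.4 at 126 days and 6.59 to 105 at 180 days, and the 4 found of 5 B cell markers summed to 0.65 to 13.02, 20.9 to 56.9 and 1.07 to 513 FPKM. Most of the B cell sum was JCHAIN, at 20.5 to 56.8 FPKM at 126 days and up to 487 FPKM at 180 days. CD79B had medians of 0.21, 0.19 and 0.23 FPKM at the 3 ages, and the B cell factor PAX5 was listed at 0 in 4 of 5 birds of each age. At 180 against 42 days, 4 of 6 fibroblast markers (COL1A1, COL1A2, COL3A1 and LUM) fell, beside 2.81% of all genes. DCN and PDGFRA did not pass there, with log2 fold changes of -1.47 and -1.83. No fibroblast marker passed in the other comparisons. An unadjusted p under 0.05 was found in 3 of 6 at 126 against 42 days, beside 19.6% of all genes. At 180 against 126 days 5 of 6 had one, beside 15.8%. The summed fibroblast level was 246 to 816 FPKM at 42 days, 194 to 1272 at 126 days and 39.4 to 219 at 180 days. Myeloid sums were 73.3 to 213, 136 to 578 and 69.5 to 1198 FPKM, and those of fat 22.5 to 54.6, 22.8 to 43.4 and 21.7 to 36.8 FPKM. Replicate 1 of 126 days had the highest T cell, B cell, fibroblast, myeloid and fat sums of its age. The medians of that age were 250 FPKM for fibroblast and 185 FPKM for myeloid markers. Replicate 1 of 180 days likewise had the highest of these sums at its age. No marker of the slow fibre, fat, myeloid, endothelial, erythrocyte or melanocyte lists passed the limma test in any comparison. Some had an unadjusted p under 0.05. At 126 against 42 days these were 2 of 4 slow fibre, 2 of 4 fat and 3 of 6 myeloid markers, beside 19.6% of all genes. At 180 against 42 they were 3 of 4 slow fibre, 1 of 3 fat and 3 of 5 melanocyte markers, beside 17.6%. At 180 against 126 they were 1 of 3 slow fibre, 1 of 5 fat, 3 of 6 myeloid, 1 of 5 endothelial and 2 of 4 melanocyte markers, beside 15.8%. The part of these cells in the clock gene levels was not tested.

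Finally, several clock genes were spread over more than one entry of the table, each entry carrying the gene name. Whether an entry is a locus or a single transcript of the gene is not known here. PER3 and CRY2 had 1 entry, CLOCK, NPAS2, PER2, NR1D2 and BHLHE40 had 2, CRY1 and TEF had 3, and ARNTL had 6. In CLOCK and PER2 the main entry held 84.3 to 94.9% and 91.4 to 98.8% of the sum. In ARNTL the main entry held between 0 and 68.8% of the sum depending on the bird, in NR1D2 between 0 and 100% and in TEF between 16.9 and 79.7%. In BHLHE40 the main entry held 64.3 to 98.1%. The values of ARNTL, NR1D2 and TEF, and the narrow spread of BHLHE40 at 180 days, therefore rest on the summing of entries. With the highest entry of each name alone, no clock gene passed in any comparison: at 126 against 42 days ARNTL had a log2 fold change of 2.67 (limma adjusted p = 0.343) and NR1D2 one of 0.06 (0.987), while single-entry PER3 kept its -2.26 with an adjusted p of 0.0634.

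**Figure D4:**
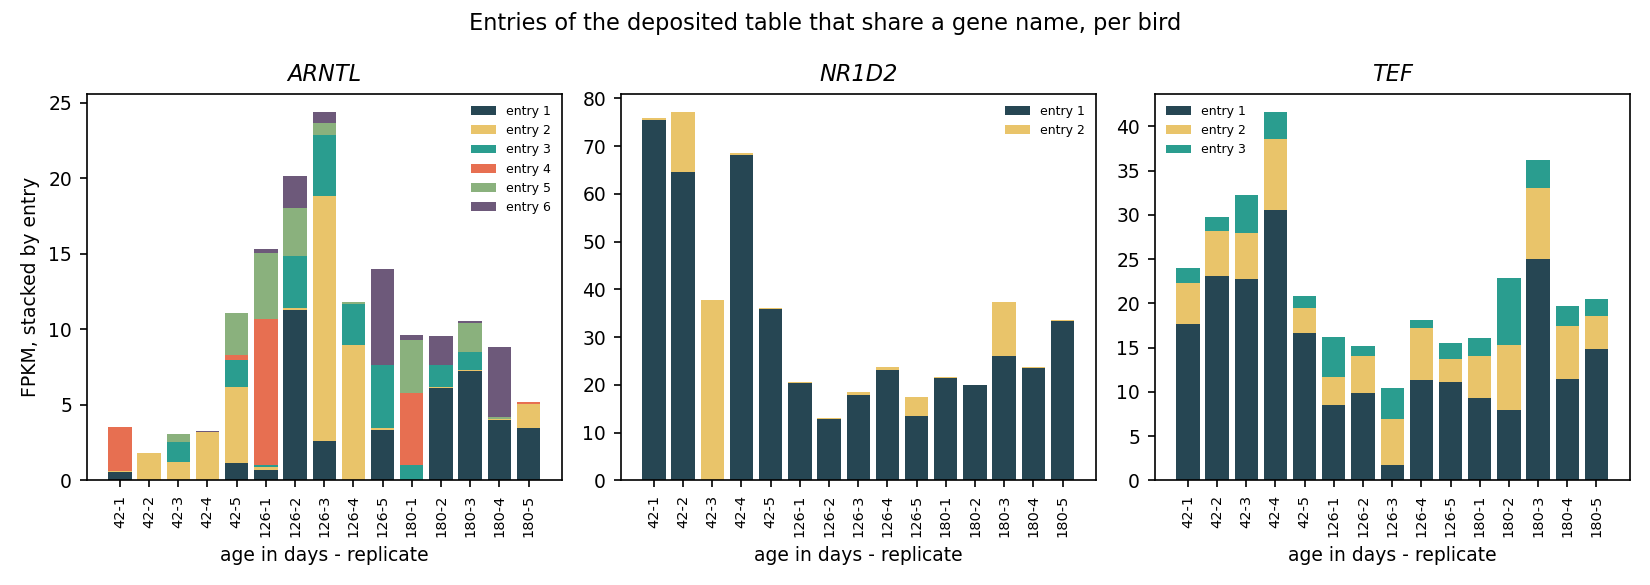
FPKM of ARNTL, NR1D2 and TEF in each bird, stacked by the entries that carry the gene name. The division among entries changes from bird to bird, and in 42-day replicate 3 the main entry of NR1D2 is at 0 while the other holds 37.84 FPKM.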

How the data were processed

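Breast muscle RNA of 15 hens (5 per age) was sequenced as paired-end reads by the authors, who trimmed it with Cutadapt and mapped it to the chicken genome with HISAT2 2.2.1, and the submitters' processing notes also name StringTie 2.1.6. These are fewer birds per age than the study describes for sequencing, and other birds were not analysed here. The deposited values are FPKM with 2 decimals per assembled entry, made by the authors. The genome build is not given in the sources used here, so no positions are printed. Because FPKM are not counts, no count model was used, depth is unknown, and counting error cannot be given. The table held 48836 entries, summed by gene name to 23599 names, of which 12100 had a single entry. FPKM were not rescaled.

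The tests were made with limma 3.58.1 in R 4.3.3 (trend, pseudocount 0.1, minimum mean 0.5 FPKM over both ages), 2 ages at a time. Correlations were computed in Python 3.11.15 (SciPy 1.17.1, NumPy 2.4.6 and pandas 2.3.3). Scripts were tested on simulated data. Named genes were all 10 members, genes of the other lists where a result turned on them, and the 5 highest and 5 lowest in r with ARNTL among names that are gene symbols. One gene of the further clock list that passed in a comparison is counted but not reported here. The members and lists were chosen with earlier results of these data known. The alternatives were a pseudocount of 1, no minimum or a mean of at least 1 FPKM, rescaling to a common sum, quantile normalization, 3 ages in one fit, a replicate block, the highest entry of each name, uncentred correlations and leaving out each bird. All 10 members matched a RefSeq symbol in the GRCg7b gene table, used for names alone. Metabolite data were not used here.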

Additional observations from a re-analysis of the deposited data

Results flagged for a closer look

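Within each age, the highest and the lowest bird of every clock gene were set against the rest by the gap to the nearest bird over the range of the 5, with the 95% critical value of Dixon's test as the limit. Of 30 gene and age groups 3 went past it. The limit was applied to FPKM and not to log2 values. Its chance of about 1 in 20 assumes normally distributed values, which was not tested, so no excess over chance is read from the 3. ARNTL in replicate 5 of 42 days was 11.07 FPKM, with the next bird at 3.56 FPKM (gap over range 0.813). CLOCK in the same bird was 41.12 FPKM, with the next at 19.34 FPKM (0.820). NPAS2 in replicate 2 of 42 days was 1.61 FPKM, with the next at 0.49 FPKM (0.830), and 1.34 FPKM of it came from an entry that was at 0 in the other 14 birds.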

How the results depend on the processing

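Of 697 values of single genes under the alternatives, 613 kept their direction and their side of the threshold, 63 lost a call, 13 gained one and 8 changed sign. Only the 11 results that had passed could lose a call, so the 63 are not a share of the 697. NR1D1 at 126 against 42 days kept its call under all 8 processing alternatives and with each of 10 birds left out. PER3 at 180 against 126 days kept its call under 3 of 8 and with 1 of 10. With the highest entry of each name, NR1D2 had a log2 fold change of 0.064 at 126 against 42 days and 0.58 at 180 against 42, and at 180 against 126 days ARNTL had 0.59 and NFIL3 0.20. Quantile normalization put NPAS2 at 0.15 at 180 against 42 days. Leaving out 1 bird gave -0.34 to 0.0033 for PER2 at 126 against 42 days, and at 180 against 42 days -0.35 to 0.025 for CLOCK and -0.27 to 0.032 for NPAS2. None of these genes passed under the setting that changed the sign. The main entry of ARNTL and that of NR1D2 were at 0 in some birds. The cause of these changes of sign was not tested.

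Clock genes called at 126 against 42 days (5) were 0 with the highest entry and 1 to 5 with a bird left out. At 180 against 42 days (1) they were 3 with all 3 ages in one fit, 0 with quantile normalization, the replicate block or the highest entry, and 0 to 5 with a bird left out. With rescaling to a common sum the count stayed at 1 with another gene, NR1D2 (limma adjusted p = 0.0355) in place of CRY1 (0.0545). At 180 against 126 days (2) they were 1 with a pseudocount of 1, quantile normalization or all 3 ages in one fit, 0 without a minimum or with the highest entry, and 0 to 2 with a bird left out. DEGs over all genes at 126 against 42 days (283) were 186 with a pseudocount of 1, 169 without a minimum, 51 with the highest entry and 77 to 375 with a bird left out. At 180 against 42 days (342) they were 225 with quantile normalization (53 higher and 172 lower, against 54 and 288), 172 with the highest entry and 176 to 770 with a bird left out. At 180 against 126 days (106) they were 53 without a minimum, 20 with the highest entry, 270 with the replicate block and 15 to 378 with a bird left out; quantile normalization gave 27 higher and 57 lower, against 54 and 52. Gene pairs correlated within ages (0) were 13 when values were not centred, which mixes the ages, and 0 with any bird left out.

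Replicate numbers are used here to name birds, and whether they also mark a batch is not given. The deviations of same-numbered birds from their age means correlated with r between -0.128 and 0.32, above 0.1 in 9 of 15 pairs. Of 15 birds, 5 correlated best with a bird of their own number. Whether this exceeds chance was not tested. With the replicate block, CRY1 at 180 against 42 days had a limma adjusted p of 0.0521 and HLF 0.0580, TEF at 126 against 42 days 0.0546 and, at 180 against 126 days, ARNTL 0.0339 and NFIL3 0.0202. It changed no other call of a named gene.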
